A study of Mus musculus with 48 samples.

Results

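Nr1d1, Nr1d2 and Rora encode nuclear receptors of the circadian clock, and they were followed in whole jejunum (mid small intestine) of mice kept in constant darkness. The members were the rows of the deposited gene table whose Ensembl ID carries 1 of these 3 symbols, and all 3 were found among 55401 gene IDs and were kept among the 15646 genes tested. The first genotype, Bmal1iec-/- (knockout, KO), has a loss of Bmal1 (gene symbol Arntl) aimed at intestinal epithelial cells, and the second is bmal1fl/fl (control), with floxed Bmal1 alleles. Each genotype was sampled every 4 h of circadian time (CT), starting at CT1 and ending at CT21, with 4 libraries a group except KO CT9 with 3, so that 23 KO and 24 control libraries were analysed. The sources used here do not give the promoter that drives recombination, or the age and sex of the mice. No label ties a library to a mouse, so the spread behind each p-value may be technical.

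REV-ERBα (Nr1d1) and REV-ERBβ (Nr1d2) are heme-binding repressors. BMAL1 and its partner CLOCK switch both genes on through E-box DNA, and the REV-ERB proteins in turn bind ROR response elements in Arntl and other genes and recruit the NCoR and HDAC3 corepressors. RORα (Rora) activates through the same elements, so the receptors compete for them. This loop shapes the daily rhythm of Arntl, and in the small intestine REV-ERBα is known for acting through NFIL3 on lipid handling.

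The windows from RefSeq (GRCm38.p6) that run from 250 bases before the start into the first 50 bases of the gene are shown for the 2 receptors with the largest daily swing and for Arntl, their best known target. Each is given 5′ to 3′ on the gene's strand, with the motif matches in capitals. The windows lie at chr11:98775328-98775627 (minus strand) for Nr1d1, chr14:18239057-18239356 (minus strand) for Nr1d2 and chr7:113207261-113207560 (plus strand) for the second of the Arntl windows.

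Nr1d1: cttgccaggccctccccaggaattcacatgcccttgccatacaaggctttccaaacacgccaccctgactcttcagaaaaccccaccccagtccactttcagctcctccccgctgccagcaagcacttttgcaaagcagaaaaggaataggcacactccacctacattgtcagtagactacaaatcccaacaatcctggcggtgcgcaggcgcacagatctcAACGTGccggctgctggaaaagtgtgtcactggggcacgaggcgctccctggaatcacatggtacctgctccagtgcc
Nr1d2: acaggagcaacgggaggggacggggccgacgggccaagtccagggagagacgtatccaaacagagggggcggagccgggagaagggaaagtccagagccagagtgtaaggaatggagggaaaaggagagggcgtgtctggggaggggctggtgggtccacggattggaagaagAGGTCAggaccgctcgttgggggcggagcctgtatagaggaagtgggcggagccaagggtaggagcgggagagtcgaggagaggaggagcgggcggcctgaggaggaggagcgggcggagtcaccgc
Arntl: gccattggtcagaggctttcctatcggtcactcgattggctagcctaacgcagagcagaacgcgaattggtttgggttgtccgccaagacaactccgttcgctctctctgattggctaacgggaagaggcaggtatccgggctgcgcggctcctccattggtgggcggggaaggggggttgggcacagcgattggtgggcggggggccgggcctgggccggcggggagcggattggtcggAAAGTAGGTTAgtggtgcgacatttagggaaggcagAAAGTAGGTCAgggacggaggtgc

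In Nr1d1 the capitals mark AACGTG, the reverse complement of the E-box-like CACGTT, at bases 223 to 228 of the window. In Nr1d2 they mark AGGTCA, the core half-site of nuclear receptors, at bases 174 to 179. The Arntl window holds AAAGTAGGTTA at bases 241 to 251 and AAAGTAGGTCA at bases 277 to 287, a pair of ROR response elements, and AAAGTAGGTCA also contains AGGTCA and TAGGTCA. The search ran on both strands of 32851 RefSeq windows of the same length. CACGTG was in 7.15% of them, CACGTT in 4.68%, AGGTCA in 16.3%, TAGGTCA in 2.61%, TTATGTAA in 0.938%, TTACGTAA in 0.119% and the longer element of the Arntl pair, with any base next to its last, in 0.0609%; this element was added after the sequences had been read. The Rora window at chr9:68653536-68653835 (plus strand) held none of these letters, but it is built on a start that lies inside the RefSeq span of the gene, so the bases before the outermost start were not searched. A match describes the letters and is no evidence of binding.

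Total counts ranged from 4.79 to 6.91 M (M, mega) in KO libraries and from 4.34 to 6.06 M in control libraries. In 5 libraries the genes departed from their usual level more widely than in the others: KO CT1 replicates 1, 2 and 3, KO CT21 replicate 4 and control CT21 replicate 1. The interquartile range of their relative log expression was 0.600 to 1.12, against 0.279 to 0.476 in the other 42 libraries. In the 5 libraries genes of large exon length read low, with a slope on log2 exon length of -0.262 to -0.108, against -0.0547 to 0.0657. Changes of the 3 receptors at CT1 and over all times are therefore given with and without them. Markers of jejunal epithelium summed to 18210 to 34020 counts per M (CPM, scaled by TMM) in KO and 18540 to 31040 CPM in control libraries. Of these 8 markers 2 were higher in KO over all times (Fabp1 and Sis) and 2 lower (Fabp2 and Apoa4), beside 12.2% of all genes higher and 11.0% lower. Arntl, the targeted gene, averaged 27.3 CPM in KO and 75.5 CPM in control at CT1, and 28.2 CPM in KO and 10.4 CPM in control at CT9. Its counts cover the whole gene, and its KO group means lay between 27.3 and 31.4 CPM. In whole tissue, fewer cells of a type and less RNA per cell cannot be told apart.

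Nr1d1 was lower in KO than in control jejunum at CT1, CT5, CT9 and CT13, the part of the day in which control levels were high, and its daily peak was flattened. It lies at chr11:98767932-98775333 (minus strand, mm10; ENSMUSG00000020889.11). At CT5 its 4 KO libraries had 17.5, 15.8, 20.2 and 19.8 CPM, against 131, 133, 157 and 147 CPM in control libraries. At CT9 the KO libraries had 24.2, 25.4 and 13.9 CPM, against 192, 111, 119 and 117 CPM in control. The genotypes were far from overlapping at both times, and the lowest control library was several times the highest KO library.

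At CT1 Nr1d1 had 2.84, 2.09, 3.25 and 2.67 CPM in KO libraries, against 33.9, 24.3, 34.7 and 37.0 CPM in control libraries. At CT13 it had 8.78, 11.2, 8.67 and 8.51 CPM in KO, against 45.2, 44.9, 29.3 and 30.1 CPM in control. At these times too no KO library reached the control range. At CT17 the KO libraries had 3.62, 1.57, 2.75 and 2.45 CPM, against 2.48, 3.67, 6.28 and 4.57 CPM in control, and at CT21 they had 2.58, 1.77, 2.02 and 3.05 CPM, against 1.61, 2.09, 2.94 and 0.985 CPM in control. Around the trough the genotypes overlapped, on counts of 5 to 30 reads a library.

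As group means, Nr1d1 in KO stood at 8.34% of control at CT1, then 12.9% at CT5 and 15.7% at CT9, and later 24.9% at CT13, 61.1% at CT17 and 123% at CT21. The log2 fold change (KO minus control) was -2.95 at CT5 (SE 0.20, adjusted p 2.48e-14 by edgeR's quasi-likelihood test over all genes) and -2.67 at CT9 (SE 0.22, adjusted p 1.02e-11). It was -3.56 at CT1 (SE 0.25, adjusted p 1.17e-13), an 11.8-fold lower level, and -2.0 at CT13 (SE 0.21, adjusted p 3.07e-09). At CT17 it was -0.69 (adjusted p 0.315), with a 95% interval of -1.30 to -0.08 that is not adjusted for the number of genes, and at CT21 it was 0.26 (adjusted p 0.929), with an interval of -0.46 to 0.99. Over all times it was -1.94 (SE 0.11, adjusted p 1.12e-17). Without the 5 wide libraries the change over all times was -1.98 (adjusted p 2.23e-12). At CT1 it was then -3.63, a value that rests on 1 KO library, whose spread is assumed to be that of the other groups.

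Nr1d2 fell at 1 more time than Nr1d1, CT17, where its control mean was 35.9 CPM, against 148 CPM at CT9 and 7.84 CPM at CT21. It lies at chr14:18204054-18239127 (minus strand; ENSMUSG00000021775.11). At CT9 its KO libraries had 39.3, 31.9 and 20.5 CPM, against 160, 151, 140 and 140 CPM in control libraries. At CT13 they had 23.4, 29.1, 35.2 and 24.1 CPM, against 113, 84.5, 107 and 87.1 CPM in control. The highest KO library was well under the lowest control library at each of these times.

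At CT17 Nr1d2 had 13.6, 12.6, 18.2 and 9.03 CPM in KO libraries, against 29.7, 33.8, 46.9 and 33.2 CPM in control libraries. At CT5 it had 23.2, 24.3, 18.7 and 19.2 CPM in KO, against 63.8, 79.95, 80.7 and 94.4 CPM in control. At CT1 it had 2.65, 6.04, 1.3 and 6.09 CPM in KO, against 32.7, 21.9, 24.6 and 23.0 CPM in control. The groups stayed apart at all 3 times. At CT21 the values were 7.18, 6.10, 3.30 and 2.34 CPM in KO and 5.30, 9.14, 6.86 and 10.1 CPM in control, and the groups overlapped.

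The Nr1d2 log2 fold change was -2.67 at CT1 (SE 0.29, adjusted p 4.28e-08), -1.90 at CT5 (SE 0.23, adjusted p 5.07e-07), -2.27 at CT9 (SE 0.25, adjusted p 1.74e-08), -1.81 at CT13 (SE 0.23, adjusted p 2.41e-07) and -1.42 at CT17 (SE 0.24, adjusted p 0.000187). At CT21 it was -0.70 (SE 0.30, adjusted p 0.375). As a share of control, KO group means were 15.7% at CT1 and 26.8% at CT5, then 20.7% at CT9 and 28.5% at CT13, and 37.1% at CT17 and 60.4% at CT21. Over all times the change was -1.80 (SE 0.11, adjusted p 2.24e-17). Without the wide libraries it was -1.69 over all times (adjusted p 1.61e-14) and -2.11 at CT1, again from 1 KO library with the spread taken from the other groups.

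**Figure D1:**
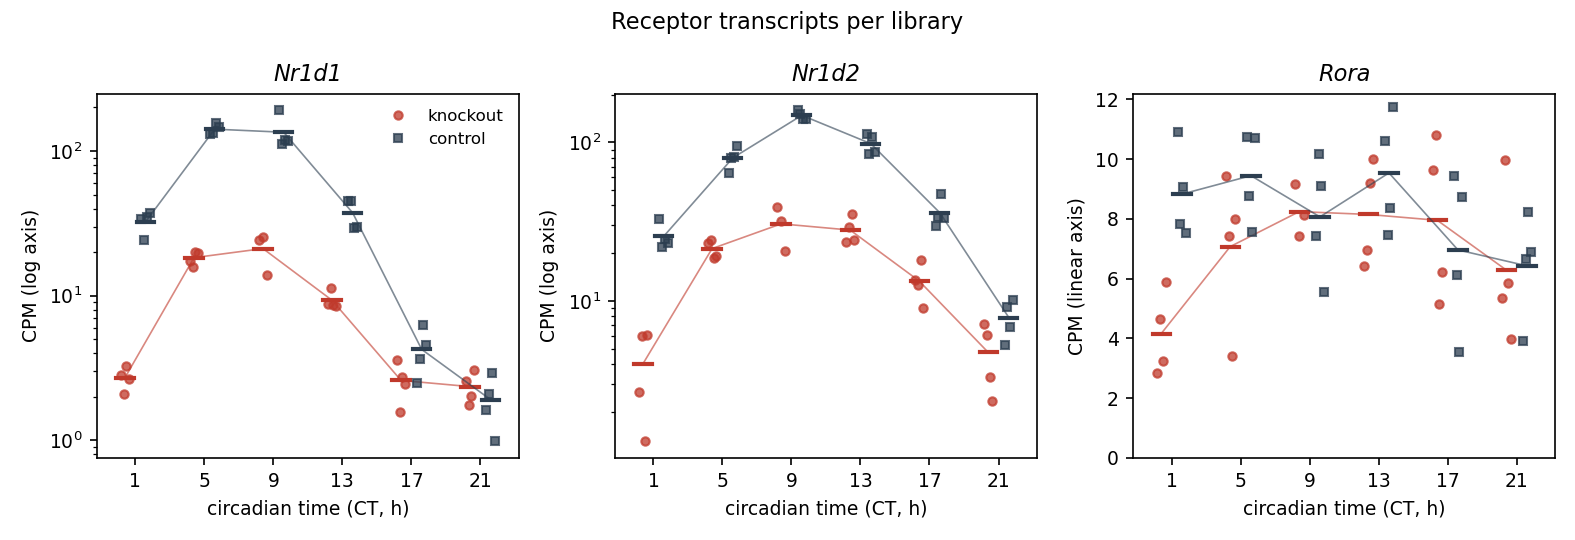
CPM of Nr1d1, Nr1d2 and Rora by circadian time (hours), on log axes for Nr1d1 and Nr1d2 and a linear axis for Rora, with 1 point a library and lines through the group means for KO and control jejunum. Nr1d1 groups stand apart from CT1 to CT13 and Nr1d2 groups from CT1 to CT17, and the Rora groups overlap at all times but CT1.

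Rora, whose product is an activator at the elements REV-ERB represses, passed the test at CT1 and at no other time. It spans chr9:68653786-69388246 (plus strand; ENSMUSG00000032238.17), over 734461 bases, and had 15 to 69 reads a library. At CT1 it had 2.84, 4.65, 3.25 and 5.90 CPM in KO libraries, against 10.9, 7.82, 9.06 and 7.53 CPM in control libraries. These groups did not overlap, and the log2 fold change was -1.08 (SE 0.30, adjusted p 0.0112). However, 3 of the 4 KO libraries at CT1 are wide libraries, and without them the change was -0.62 (SE 0.44, adjusted p 0.603), resting on 1 KO library. Leaving out KO CT1 replicate 1 alone gave an adjusted p of 0.0613, and leaving out control CT1 replicate 1 gave 0.0503. Rora read 2.84 to 4.65 CPM in the 5 wide libraries and 3.40 to 11.8 CPM in the other 42.

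At the other times the Rora groups overlapped. Group means were 7.07 ± 2.59 CPM in KO and 9.45 ± 1.56 CPM in control at CT5 (SD, n = 4 each), 8.24 ± 0.883 CPM in KO (n = 3) and 8.07 ± 2.02 CPM in control (n = 4) at CT9, and 8.15 ± 1.72 CPM in KO and 9.54 ± 1.98 CPM in control at CT13 (n = 4 each). They were 7.95 ± 2.71 CPM in KO and 6.96 ± 2.68 CPM in control at CT17 and 6.29 ± 2.57 CPM in KO and 6.43 ± 1.81 CPM in control at CT21. Over all times the change was -0.25 (SE 0.12, 95% interval -0.49 to -0.01, adjusted p 0.12), and -0.18 without the wide libraries (adjusted p 0.337). Leaving out KO CT21 replicate 2 gave -0.31 and an adjusted p of 0.0487.

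**Figure D2:**
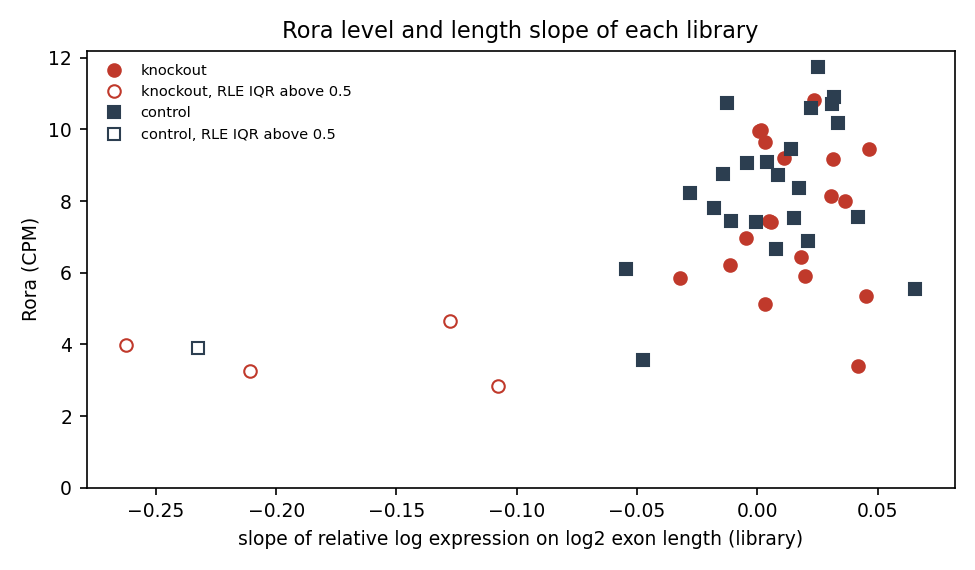
Rora level of each library against that library's slope of relative log expression on log2 exon length, for KO and control libraries, with the 5 wide libraries as open symbols. The wide libraries have slopes of -0.262 to -0.108 and Rora levels of 2.84 to 4.65 CPM.

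Of the 3 members, 2 fell over all times, beside 11.0% of all genes tested that were lower in KO. At CT1 3 fell (8.07% of all genes), at CT5 2 (0.339%), at CT9 2 (2.11%), at CT13 2 (1.35%) and at CT17 1 (1.41%). The CT1 count and share include the wide libraries, which are most of the KO group there. Without the wide libraries the Rora change at CT1 was -0.62, resting on 1 KO library. At CT21 edgeR called 0 of the 3 (0.754% of all genes), with 1 at an unadjusted p under 0.05, Nr1d2, and limma-voom and DESeq2 also called 0.

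**Figure D3:**
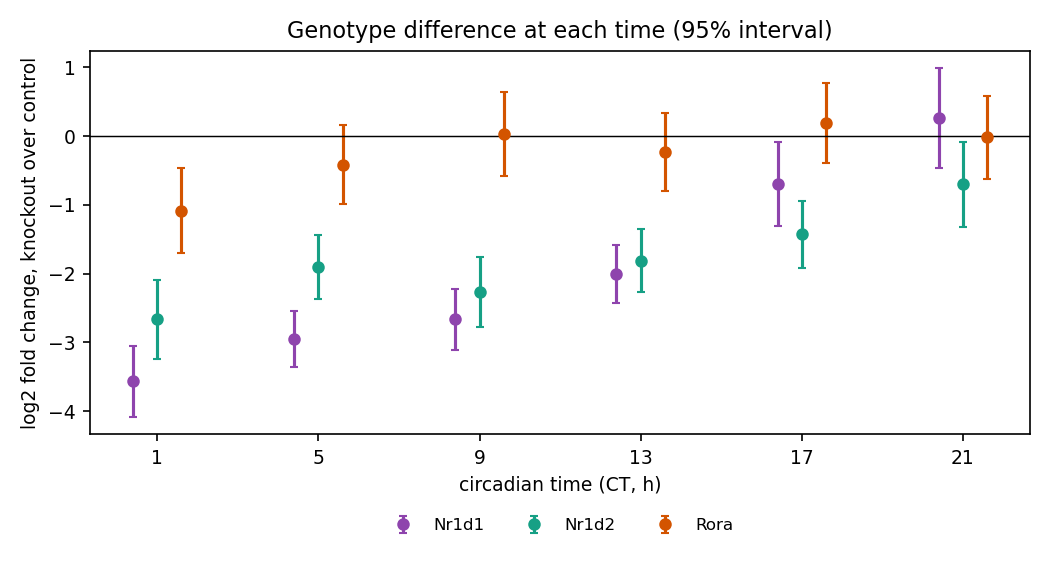
Log2 fold change (KO minus control) by circadian time with 95% intervals for Nr1d1, Nr1d2 and Rora. The Nr1d1 and Nr1d2 values lie lowest at CT1 (-3.56 and -2.67), and the Rora intervals include 0 at all times but CT1.

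Both REV-ERB genes kept a 24-h rhythm in KO jejunum at a lower level. The libraries are of whole jejunum, which also holds cells that the targeting was not aimed at. Smooth muscle markers, for example, summed to 1042 to 2657 CPM in KO and 753 to 2392 CPM in control libraries. Which cells carried the rhythm was not tested. Nr1d1 had a fitted amplitude (mid-level to peak, log2 scale) of 1.92 in KO (SE 0.17) and 2.98 in control (SE 0.14), with peaks at CT8.17 in KO and CT7.17 in control. The fitted peak was 14.2 times the trough in KO and 62.5 times in control. The amplitude difference was -1.07 (95% interval -1.51 to -0.62) and the fitted peak was 1.00 h later in KO (0.32 to 1.69 h). These intervals are not adjusted for the number of genes, and the control means departed from a cosine, as given below. Without the wide libraries the fitted peaks were at CT7.91 in KO and CT7.12 in control. The rhythm passed in KO (adjusted p 5.36e-11) and in control (2.98e-21), and the joint test of amplitude and peak time differed between genotypes (0.000737).

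Nr1d2 peaked after Nr1d1, at CT10.3 in KO and CT9.48 in control, with amplitudes of 1.52 (SE 0.15) in KO and 1.83 (SE 0.12) in control. Its rhythm passed in KO (adjusted p 7.75e-09) and in control (2.54e-14). The amplitude difference was -0.31 (95% interval -0.71 to 0.08), the peak difference was 0.82 h (-0.05 to 1.68 h), and the joint test did not pass (adjusted p 0.493). Without the wide libraries the Nr1d2 amplitudes were 1.25 in KO and 1.74 in control. The peaks were then at CT10.0 in KO and CT9.49 in control, and the joint test again did not pass. Rora had amplitudes of 0.39 in KO and 0.21 in control, and neither rhythm passed (adjusted p 0.0684 in KO and 0.392 in control). Without the wide libraries the Rora amplitude in KO was 0.177 and Nr1d1 kept a difference between genotypes (1.86 in KO and 2.86 in control, adjusted p 0.00664).

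A 24-h rhythm was called in 2 of the 3 members in KO (14.6% of all genes) and in 2 in control (20.5%), and it differed between genotypes in 1 (1.50%). A test that assumes no cosine shape, the genotype-by-time interaction, called 2 members (1.18% of all genes), Nr1d1 (adjusted p 7.32e-08) and Nr1d2 (0.0459). The Nr1d2 call ended when any 1 of 32 of the 47 libraries was left out, and without the wide libraries its adjusted p was 0.111. The control Nr1d1 means departed from a cosine (adjusted p 0.00236, 1 of 3 members, 0.128% of all genes), which limma-voom did not call (0.146). In KO, edgeR called 0 of the 3 (0.0383% of all genes), with 2 at an unadjusted p under 0.05, Nr1d1 and Nr1d2, and limma-voom also called 0.

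Within a library, the log2 ratio of Nr1d1 to Nr1d2 counts needs no scaling between libraries. At CT5 it averaged -0.22 in KO and 0.84 in control, with no overlap of libraries (difference -1.06, exact two-sided permutation p 0.0286, the smallest that 4 against 4 libraries allow, adjusted over the 6 times 0.171). At CT21 it averaged -0.88 in KO and -2.04 in control (difference 1.16, exact permutation p 0.143, adjusted 0.214). The difference at CT21 ran from 0.745 to 1.45 when 1 library was left out, and KO CT21 replicate 4 and control CT21 replicate 1 are wide libraries. At CT1, CT9 and CT13 the difference was -0.67, -0.36 and -0.16, and at CT17 it was 0.77, with adjusted exact permutation p-values of 0.411, 0.214, 0.543 and 0.214. At CT1, where 3 of the 4 KO libraries are wide, the difference ran from -1.20 (without KO CT1 replicate 3) to -0.28 (without KO CT1 replicate 2) when 1 library was left out, and at CT13 from -0.31 to 0.008 (without control CT13 replicate 2). No time passed the adjusted threshold, and over all times the difference was -0.05 (permutation p 0.796, 100000 resamples).

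**Figure D4:**
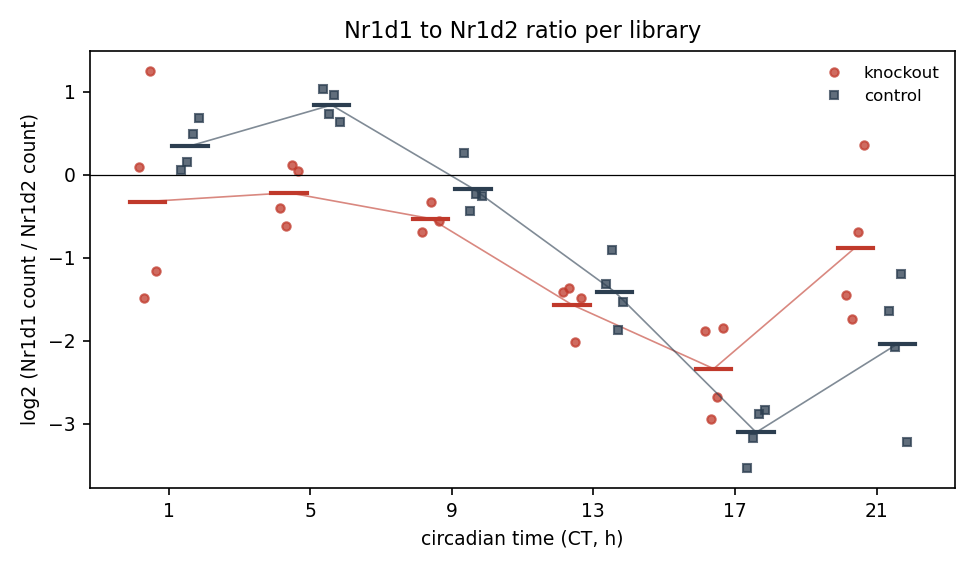
Log2 ratio of Nr1d1 to Nr1d2 counts in each library by circadian time (hours) for KO and control jejunum, with group means. At CT5 the KO libraries (mean -0.22) lie below all control libraries (mean 0.84).

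Per kilobase of exon the level of Nr1d1 averaged 3.06 CPM per kb in KO and 19.1 in control, that of Nr1d2 3.14 in KO and 12.2 in control, and that of Rora 0.534 in KO and 0.628 in control. Rorb had at most 3 counts in a library and was not tested. In order of group means, Nr1d1 was highest in control CT5 and CT9, whose libraries overlap, and after a gap came control CT13 and CT1 and then KO CT9 and CT5. Nr1d2 was highest in control CT9, apart from control CT13 and CT5, and in Rora all neighbouring groups overlapped.

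The 6 T cell and intraepithelial lymphocyte markers were all lower in KO, beside 11.0% of all genes, with a summed level of 48.3 to 112 CPM in KO and 93.3 to 363 CPM in control. Lower as well were 3 of 4 B and plasma cell markers and 3 of 7 fibroblast and endothelium markers, with 0 higher in either list. Of 4 myeloid markers 1 was higher and 1 lower, and 0 of 6 smooth muscle and 0 of 7 enteric neuron and glia markers passed. Of the 6 innate lymphoid markers, cells in which Rora is known to act, Gata3, Il22, Il23r and Ccr6 were too low to test, Il1rl1 was higher in KO and Il7r lower. The part of these cells in the Rora values was not tested.

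Of 5 genes with REV-ERB/ROR response elements reported here, 3 were higher in KO over all times and 0 lower by edgeR's test, beside 12.2% of all genes higher, with a median log2 fold change of 0.79 against -0.01 over all genes tested. The 3 were Npas2, a partner of BMAL1 (85.1 CPM in KO and 41.2 CPM in control over all times, 1.18, adjusted p 2.52e-18), the repressor Cry1 (54.6 CPM in KO and 29.1 CPM in control, 1.07, adjusted p 6.12e-13) and Nfil3, a D-box repressor (24.4 CPM in KO and 19.4 CPM in control, 0.79, adjusted p 1.8e-08). Clock had 0.03 (adjusted p 0.862) and Arntl -0.09 (adjusted p 0.317). The rhythm differed between genotypes in 4 of the 5, all but Clock, beside 1.50% of all genes. Arntl, the targeted gene, is among these 4, and Arntl, Clock, Npas2 and Cry1 are also on the E-box list below. The part of the response elements in any of these calls was not tested. Nfil3 averaged 31.0 ± 4.51 CPM in KO and 6.79 ± 1.87 CPM in control at CT5 (SD, n = 4 each) but 31.6 ± 8.06 CPM in KO and 35.2 ± 1.223 CPM in control at CT1. Npas2 and Cry1 had amplitudes of 0.08 and 0.08 in KO and 0.86 and 0.95 in control.

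**Figure D5:**
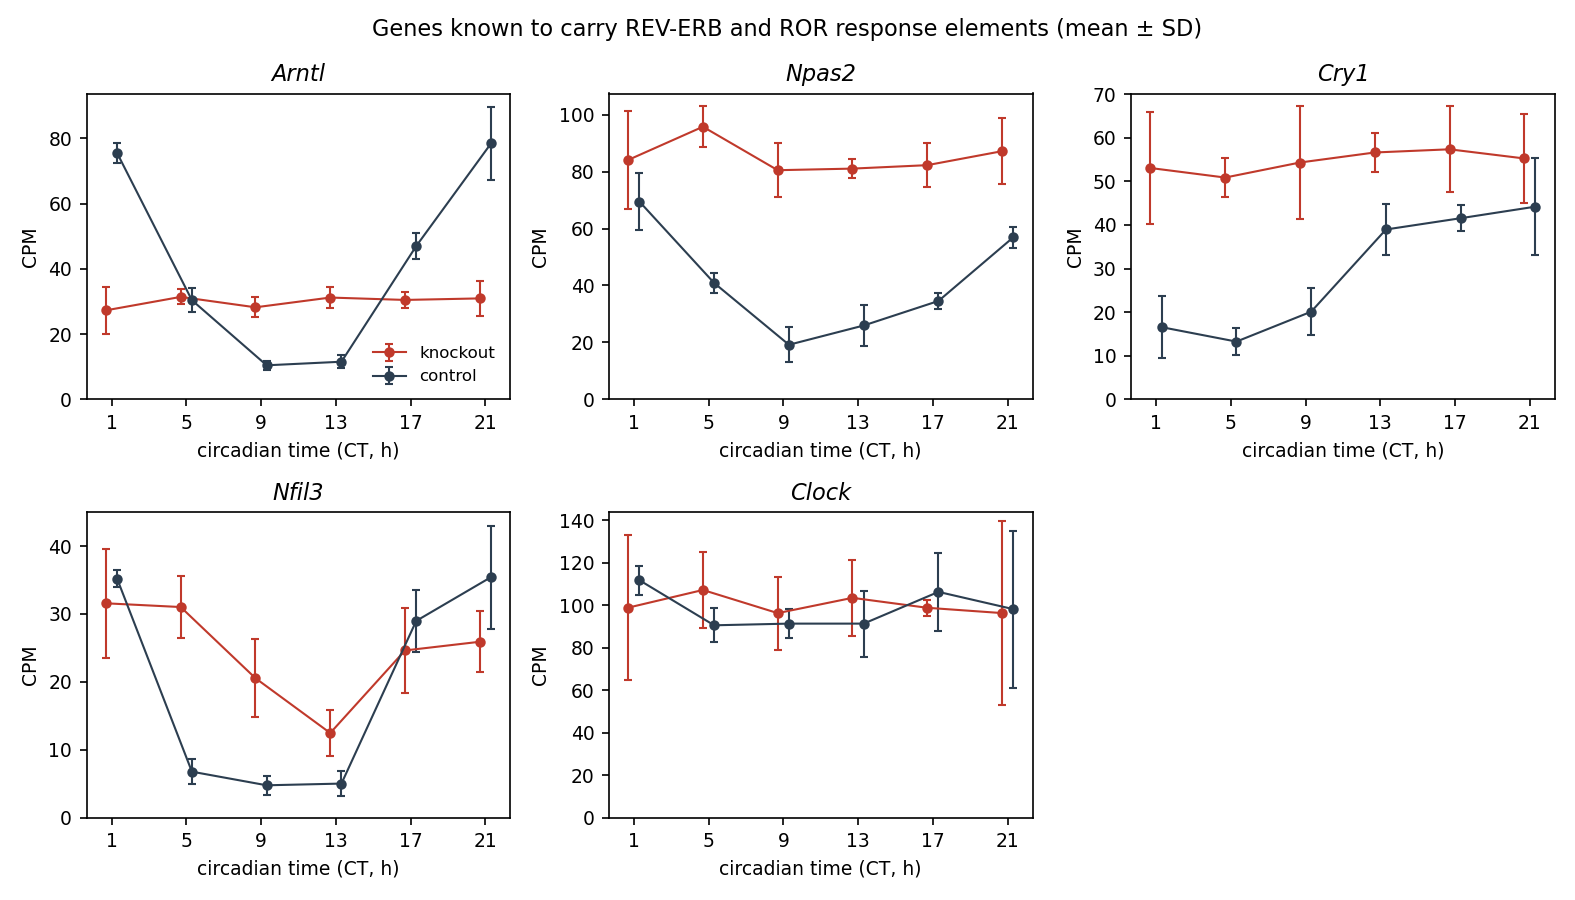
CPM by circadian time (hours), group mean ± SD, for Arntl, Npas2, Cry1, Nfil3 and Clock in KO and control jejunum. Cry1 group means lie between 50.9 and 57.3 CPM in KO, against 13.2 to 44.2 CPM in control.

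The counts of the following lists are read beside 12.2% of all genes higher in KO, 11.0% lower and 1.50% with a changed rhythm. The D-box factors had 1 higher and 2 lower of 4 (Dbp -0.81, adjusted p 3.75e-07, and Tef -0.54, adjusted p 2.4e-10, both lower), and the rhythm of all 4 differed between genotypes. Their higher gene is Nfil3, counted above as well. The E-box activators and repressors had 4 higher and 2 lower of 11 (Per3 -1.05, adjusted p 1.58e-12, and Per1 -0.61, adjusted p 0.000192, both lower). The rhythm of 7 of the 11 differed between genotypes, and Arntl, Npas2 and Cry1, counted above as well, are among the 7. Npas2 and Cry1 are also among the 4 higher, as is Cry2 (0.70, adjusted p 2.8e-12). Another of the 4, Bhlhe40, lost its call when any 1 of 13 of the 47 libraries was left out. Among 5 corepressor genes reported here Ncor1 was higher (0.35, adjusted p 0.00137) and Tbl1xr1 lower (-0.15, adjusted p 0.00595), while Hdac3, Tbl1x and Gps2 lay between -0.08 and 0.01. Heme is the REV-ERB ligand, and of 12 genes in the pathways of its synthesis and breakdown 4 were higher: Ppox 0.21 (adjusted p 0.00395), Uros 0.19 (0.00746), Hmox2 0.17 (0.00932) and Fech 0.16 (0.0329). The Fech call ended when any 1 of 24 of the 47 libraries was left out. Of 7 genes for REV-ERB protein turnover, 1, Spsb4, was higher (0.61, adjusted p 0.0267), a share near that of all genes. None of the 4 lipid genes linked to NFIL3 passed in edgeR's test (Cd36 0.01, Scd1 0.08, Fabp4 -0.17, Cyp2e1 -0.46). Single libraries turned the sign of all 4 values: leaving out 1 library at a time, Cyp2e1 ran from -0.62 to 0.05, Fabp4 from -0.27 to 0.09, Scd1 from -0.14 to 0.47 and Cd36 from -0.03 to 0.04. The highest values of Cyp2e1, Fabp4 and Scd1 came without control CT13 replicate 2.

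Thra, the thyroid hormone receptor α gene, lies on the opposite strand at chr11:98740638-98769006 and overlaps the end of Nr1d1 by 1075 bases, sharing 263 exonic bases, 8.55% of the Nr1d1 exon length. No source used here gives the strand setting of the counting, so reads in that stretch may have been assigned to either gene. Thra was higher in KO over all times (0.17, SE 0.04, adjusted p 0.00263), with 94.4 CPM in KO and 65.2 CPM in control at CT13 (0.53, adjusted p 0.000545). That is the opposite direction to Nr1d1 at CT13. At the other times at which Nr1d1 fell, Thra did not pass, with 0.12 at CT1 (adjusted p 0.392), -0.13 at CT5 (0.935) and -0.01 at CT9 (0.994). The part of shared reads in these values was not tested. Gm15511, antisense to Rora, had 0 counts in all libraries.

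Over the 12 group means of log2 CPM, which share libraries and depth, Nr1d1 and Nr1d2 correlated with r 0.86, Nr1d1 and Rora with 0.69, and Nr1d2 and Rora with 0.79. The profiles most like Nr1d1 were Ppargc1a (0.95), Gm32391, Ank3, Npnt and Gcnt2, and the least like were Coq4, Fam162a and S100a6. For Nr1d2 the most like were Sgk3 (0.97), Nptn, Abca1, Arhgef3 and Dock1, and the least like Fkbp1a (-0.98), Gatd1 and Gng11. For Rora they included Map2 (0.96), Col23a1, Zfp384 and Synj2, and the least like 2610528J11Rik, Dhrs11 and Csnk2b. Without the wide libraries 2 of the 8 genes chosen for Nr1d1, 1 for Nr1d2 and 0 for Rora were still among the 8.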

How the data were processed

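RNA of mouse jejunum was sequenced in 48 labelled libraries, of which 47 had a column matched by name. The authors deposited unscaled read counts, 1 row a gene and 1 column a library. Per the labels' protocols, libraries came from the TruSeq Stranded mRNA kit. Per the submitters' processing notes, tools included Trimmomatic 0.39, STAR 2.7.5c, featureCounts 1.4.6 and the mm10 genome; no source used here gives their settings. Symbols came from a GENCODE annotation of mm10 (54349 IDs matched with version, 792 without, 260 not).

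The tests used edgeR 4.0.16 under R 4.3.3 (quasi-likelihood test, TMM scaling, filterByExpr with a minimum count of 10), leaving 15646 genes. A model of 12 group means (35 residual degrees of freedom) gave genotype effects, the interaction and departures from a cosine, and a cosine model per genotype (41) gave 24-h rhythms. Adjusted p-values are Benjamini-Hochberg values over all genes, with a threshold of 0.05. Fold changes over all times average log2 differences, and CPM over all times averages group means. Replicates are numbered in accession order. The 69 pairs of libraries within groups differed beyond sampling noise (chi-square per degree of freedom at least 3.23). The scripts were tested on simulated data. Other scalings, no filter, limma-voom 3.58.1, DESeq2 1.42.0 and left-out libraries were tried. Named genes were the members, overlapping genes, Arntl, the smallest adjusted p-values of each list (all genes of lists up to 7) and the nearest profiles; some genes chosen by this rule are not reported here. Members and lists were chosen with earlier results of these data known.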

Additional observations from a re-analysis of the deposited data

Results flagged for a closer look

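A single library stood far from the rest in 2 of 33 groups tested over the 3 receptors, both for Nr1d1, and chance alone gives about 1 in 20. KO CT13 replicate 2 had 11.2 CPM, above the other KO libraries at 8.51 to 8.78 CPM. Control CT9 replicate 1 had 192 CPM, above the other control libraries at 111 to 119 CPM.

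The effect of genotype on Nr1d1 differed between times (interaction adjusted p 7.32e-08, edgeR's quasi-likelihood test), and its 24-h rhythm differed between genotypes (adjusted p 0.000737). The effect on Nr1d2 also differed between times (adjusted p 0.0459), a call that DESeq2 and the other scalings also made and that ended with limma-voom, without the filter and without the wide libraries.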

How the results depend on the processing

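No called result changed direction under the alternatives run. Without the wide libraries the adjusted p of the Nr1d2 interaction was 0.111 and the Rora change at CT1 was -0.62. With limma-voom the Nr1d2 interaction had 0.12 and the control Nr1d1 departure from a cosine 0.146. Without the filter the Nr1d2 interaction had 0.122, and over the whole lists the corepressor genes lower numbered 0, heme genes higher 2 and turnover genes higher 0. With DESeq2 the Rora rhythm in KO passed (amplitude 0.39, adjusted p 0.0454). Leaving out 1 library at a time, the Nr1d2 interaction ran from 0.0112 to 0.125, the Nr1d2 departure in KO from 0.0486 (without KO CT21 replicate 4) to 0.494, the Rora change over all times from -0.31 (without KO CT21 replicate 2) to -0.22, that at CT1 from -1.33 to -0.95 and the Rora amplitude in KO from 0.33 to 0.47, passing without KO CT21 replicate 2 (adjusted p 0.0219) or KO CT5 replicate 1 (0.0458); corepressor genes with a changed rhythm ran from 0 to 1 and turnover genes lower from 0 to 1. No paired analysis was possible because the labels carry no replicate numbers. Counts were low for Rora, at 15 to 69 reads a library, and for Nr1d1 at CT17 and CT21, at 5 to 30, and no detection limit was computed.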
